A study of Saccharomyces cerevisiae with 8 samples.

Results

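The response of budding yeast to a 5 min heat shock was examined in cells in which Ifh1, a coactivator of ribosomal protein genes, was to be depleted. The comparison comprised the 2 libraries labelled heat shock with 5ph-IAA, held at 39 °C, and the 2 libraries labelled control with 5ph-IAA, held at 30 °C, which made 4 of the 8 libraries of the study. Members were taken from the sample titles alone, and all genes of the deposited tables were followed. Cells of Saccharomyces cerevisiae strain W303a, a laboratory strain of mating type a, were grown in YPD with 2% dextrose at 30 °C to an OD600 between 0.2 and 0.4, per the labels' protocols. Both groups shared the depletion treatment, 1 µM β-estradiol and 5 µM 5ph-IAA for 30 min, so the 30 °C libraries were not untreated cells. 5ph-IAA is an auxin analogue used to send a degron-tagged protein to the proteasome. The design text of the series names another method, anchor away, in which a nuclear protein is carried into the cytoplasm, and which of these was used could not be settled from the sources. Neither the genotype of the tagged strain nor the order of depletion and heating was given there. The other 4 libraries, 2 at 39 °C and 2 at 30 °C without 5ph-IAA, entered the fit and served to ask where the heat shock change differed. Whether they received β-estradiol, a solvent or nothing was not given, so a difference between cells with and without 5ph-IAA may hold effects of more than 1 agent that cannot be told apart here.

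Poly-A RNA was sequenced, and the deposited tables gave estimated counts and TPM (abundance scaled to a fixed sum for each library, by length) for 6034 coding targets. Total estimated counts were 10118860 and 9298953 in the 39 °C libraries and 7717767 and 10007034 in the 30 °C libraries. The labels number the samples as biological replicates without mention of separate cultures, and p-values rest on the spread between these numbered samples. Of the a-cell markers, the alpha-factor receptor gene STE2 had 156 and 166 TPM at 39 °C and 485 and 495 TPM at 30 °C with 5ph-IAA. The alpha-cell receptor gene STE3 had 2.75 and 2.93 TPM at 39 °C, against 2.59 and 3.60 TPM at 30 °C, while the short a-factor genes MFA1 and MFA2 were listed at 0. In bulk RNA, fewer cells with a transcript and less of it per cell cannot be told apart. In what follows, 39 °C and 30 °C denote cells with 5ph-IAA unless stated otherwise.

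As background, heat makes proteins misfold, and yeast answers within minutes through a pair of transcription programmes. Hsf1 binds heat shock elements upstream of chaperone genes, and Msn2 and Msn4 bind stress response elements upstream of genes for carbohydrate stores, antioxidant defence and energy metabolism. At the same time growth genes are shut down, both the ribosomal protein genes driven by Rap1, Fhl1 and Ifh1 and the larger regulon of ribosome assembly factors, whose promoters carry the PAC and RRPE elements read by the repressors Dot6, Tod6 and Stb3.

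The shift to 39 °C changed most of the transcriptome of cells with 5ph-IAA. Of 5734 genes tested, 2178 were higher (38.0%) and 2194 lower (38.3%) at an adjusted p under 0.05 (edgeR's quasi-likelihood test, Benjamini-Hochberg adjustment), 76.2% of genes in all. The rise reached at least 2-fold for 825 genes (14.4%) and the fall for 565 (9.85%). At least 4-fold, 281 genes were higher and 165 lower, and at least 16-fold, 50 and 17. Genes called higher made up 53.2% and 53% of TPM in the 39 °C libraries, against 24.7% and 24.7% in the 30 °C libraries. The even split of calls depended on the scaling of the libraries: with library totals in place of TMM factors, 1409 genes were higher and 3156 lower, and the median log2 fold change of all genes, 0.01 with TMM, shifted by -0.33. With limma on log2(TPM + 1) the split was 1577 to 2835 and the shift -0.22. All log2 fold changes given are on the TMM scale, and one smaller than this shift can change sign with the scaling. A gene is said to rise or fall where its adjusted p was under 0.05. Genes are grouped below by 53 lists of pathways, complexes and cell types. The lists were written from general knowledge of yeast, but with earlier results of these data known, so they are not independent of the data. A list is described by its counts of called members and its median log2 fold change. Genes higher at least 2-fold had a median of 79.1 TPM at 39 °C and 26.2 TPM at 30 °C, and those lower at least 2-fold 25.1 and 101 TPM. A coding sequence split by an intron was found in 2.67% of the 2-fold higher and 3.01% of the 2-fold lower genes, against 5.45% of all genes tested.

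**Figure D1:**
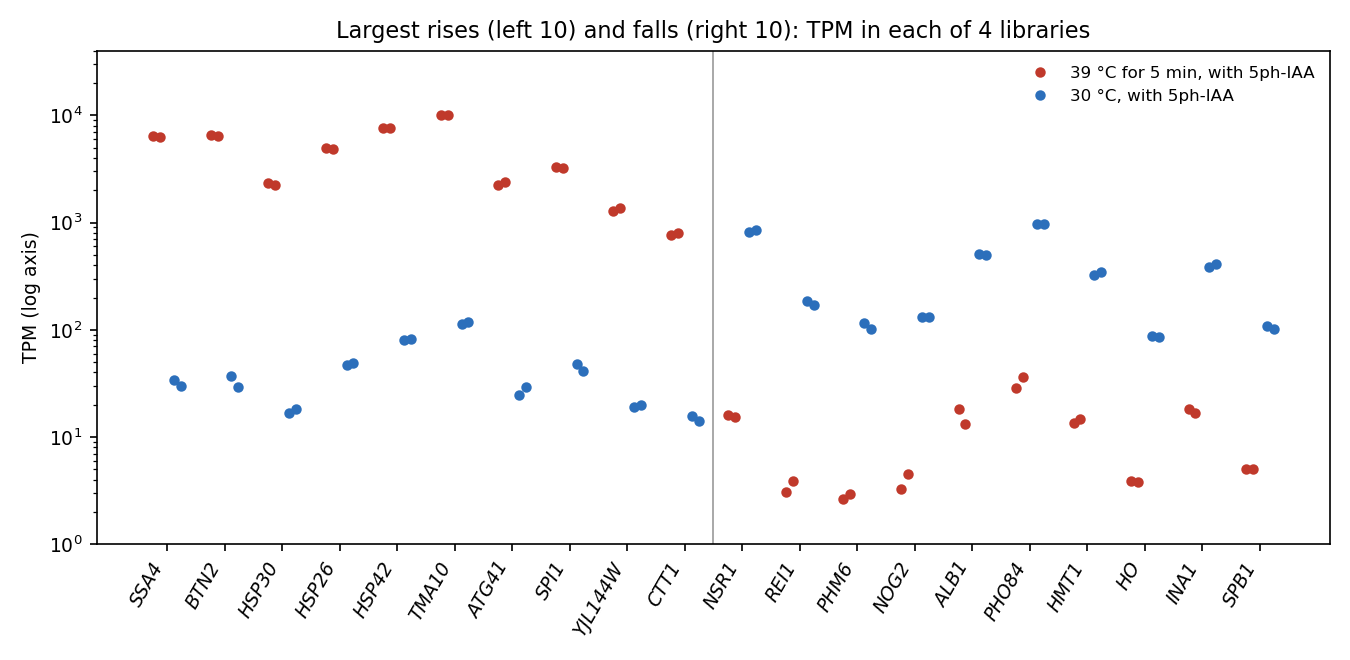
TPM on a log axis for the 10 genes with the largest rise and the 10 with the largest fall among called genes with at least 10 TPM in a group. Each dot is a library, red at 39 °C for 5 min and blue at 30 °C, all with 5ph-IAA; the pairs of dots lie apart for every gene, from SSA4 with 6473 and 6304 against 33.8 and 29.8 TPM to SPB1 with 5.00 and 5.02 against 109 and 103 TPM.

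The plot of TPM by library shows the genes that rose and fell the most. ATG41, which acts in autophagy, had 2227 and 2367 TPM at 39 °C, against 24.7 and 29.5 TPM at 30 °C. SPI1, a cell wall protein anchored by a glycolipid, had 3268 and 3215 TPM at 39 °C, against 48.0 and 41.1 TPM at 30 °C. YJL144W, annotated as ROQ1, whose product redirects a ubiquitin ligase towards misfolded proteins, had 1274 and 1363 TPM, against 18.9 and 20.1 TPM. Each of these 3 genes was higher in both 39 °C libraries. Across all genes tested, TPM did not overlap between the 2 groups for 88.3%, and the genes named were chosen for large changes, so a lack of overlap describes their values and supports nothing further. The log2 fold changes of the 3 genes were 6.61 ± 0.08, 6.42 ± 0.08 and 6.29 ± 0.09 (SE; adjusted p = 1.53e-16, 3.19e-16 and 1.21e-15, edgeR). At the other end stood NSR1, the yeast nucleolin, with 16.0 and 15.5 TPM at 39 °C, against 816 and 855 TPM at 30 °C. REI1, a cytoplasmic factor that matures the large ribosomal subunit, had 3.08 and 3.87 TPM, against 184 and 170 TPM. HMT1, the main arginine methyltransferase of RNA-binding proteins, had 13.4 and 14.7 TPM, against 321 and 342 TPM. The groups did not overlap for any of them, and the log2 fold changes were -5.50 ± 0.07, -5.45 ± 0.09 and -4.34 ± 0.09 (adjusted p = 1.93e-16, 5.64e-15 and 3.52e-14). By amount of transcript, the 5 largest gains were those of SSA4, BTN2, HSP42, TMA10 and HSP12, and the 5 largest losses those of the cell wall genes CCW12 and CWP2, the ribosomal protein gene RPS28A, the pyruvate kinase gene CDC19 and the elongation factor gene TEF1, of which RPS28A and TEF1 have close copies that share reads.

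The promoters of some of these genes hold the elements of both programmes. Stretches of 90 bases were read from the S288C R64 genome, strand of the gene, 5′ to 3′, with capitals marking a motif in either orientation. They were picked, after values and motifs were seen, from the genes in the plot of TPM by library whose windows hold a motif. Of the 10 rising genes there, 8 held a heat shock element or AGGGG, and HSP30 and ATG41 held neither. Of the 10 falling genes, 6 held CGATGAG or AAAAATTTT, and PHM6, PHO84, HO and INA1 held neither. Among all promoters searched, 34.1% held AGGGG, 1.49% a heat shock element, 9.8% CGATGAG and 9.77% AAAAATTTT. The share of all promoters with either motif of a pair was not counted. For the rising genes the capitals mark a heat shock element, here 3 units of GAA in alternating orientation with 2 bases between units, or AGGGG, the core of the stress response element. The 500-base window of SSA4 held no heat shock element in this strict form, and that of BTN2 held no AGGGG.
SSA4: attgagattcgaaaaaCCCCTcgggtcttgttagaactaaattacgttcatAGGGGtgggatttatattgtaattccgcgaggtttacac
BTN2: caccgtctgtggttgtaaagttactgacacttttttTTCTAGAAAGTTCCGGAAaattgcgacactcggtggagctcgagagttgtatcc
HSP42: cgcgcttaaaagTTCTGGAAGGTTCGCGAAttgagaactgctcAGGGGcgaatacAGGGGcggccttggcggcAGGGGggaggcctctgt
CTT1: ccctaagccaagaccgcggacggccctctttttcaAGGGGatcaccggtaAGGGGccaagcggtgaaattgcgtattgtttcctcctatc
The stretches lie at chrV:364106-364195 for SSA4, chrVII:772074-772163 for BTN2, chrIV:806366-806455 for HSP42 and chrVII:654221-654310 for CTT1, all on the plus strand. For the falling genes the capitals mark CGATGAG, the core of the PAC element, or AAAAATTTT, the core of the RRPE element. The 500-base window of NOG2 also held AGGGG, outside the stretch shown.
NSR1: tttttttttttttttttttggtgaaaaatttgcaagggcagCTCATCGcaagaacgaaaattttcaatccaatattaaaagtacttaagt
NOG2: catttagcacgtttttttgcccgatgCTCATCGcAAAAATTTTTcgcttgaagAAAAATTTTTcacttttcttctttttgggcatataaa
REI1: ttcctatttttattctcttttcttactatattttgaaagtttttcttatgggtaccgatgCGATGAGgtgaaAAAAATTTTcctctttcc
SPB1: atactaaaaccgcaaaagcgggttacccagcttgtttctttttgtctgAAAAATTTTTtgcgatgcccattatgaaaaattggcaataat
These lie at chrVII:807795-807884 and chrXIV:723230-723319 on the minus strand and at chrII:739683-739772 and chrIII:31267-31356 on the plus strand. SSA4 encodes a heat-inducible Hsp70, BTN2 a sorting factor for misfolded proteins, HSP42 a small heat shock protein and CTT1 the cytosolic catalase. NOG2 encodes a GTPase needed before the large subunit leaves the nucleus and SPB1 a methyltransferase of its RNA.

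The 500 bases before the start codon were searched for 5714 tested genes. The heat shock element in this form was found in 10 of the 50 genes higher at least 16-fold (20%), against 85 of all promoters (1.49%). The 10 included BTN2, HSP42, FES1, HSP78 (a mitochondrial disaggregase) and TSL1 (of trehalose synthesis). At least 2-fold, the element was found in 4.02% of genes higher and 1.42% of genes lower. Among genes lower at least 4-fold it was found in 3.64% (6 of 165), so its share among falling genes changed with the cutoff. AGGGG was found in 63.7% of promoters of genes higher at least 2-fold and in 21.4% of those lower at least 2-fold, against 34.1% of all. CGATGAG was found in 53.9% of the 165 genes lower at least 4-fold and in 5.36% of those higher at least 2-fold, against 9.8% of all. AAAAATTTT gave 49.7% and 4.02% for the same sets, against 9.77% of all. At the other cutoffs, CGATGAG was in 36.6% of genes lower at least 2-fold and in 12% of those higher at least 16-fold. AAAAATTTT was in 35.9% and 2% of these. Genes with AGGGG in the window had a median log2 fold change of 0.32 and genes without it -0.12. With and without CGATGAG the medians were -0.66 and 0.04. Both strands were searched, overlapping matches were joined, and a match is a description of the letters, not of binding.

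**Figure D2:**
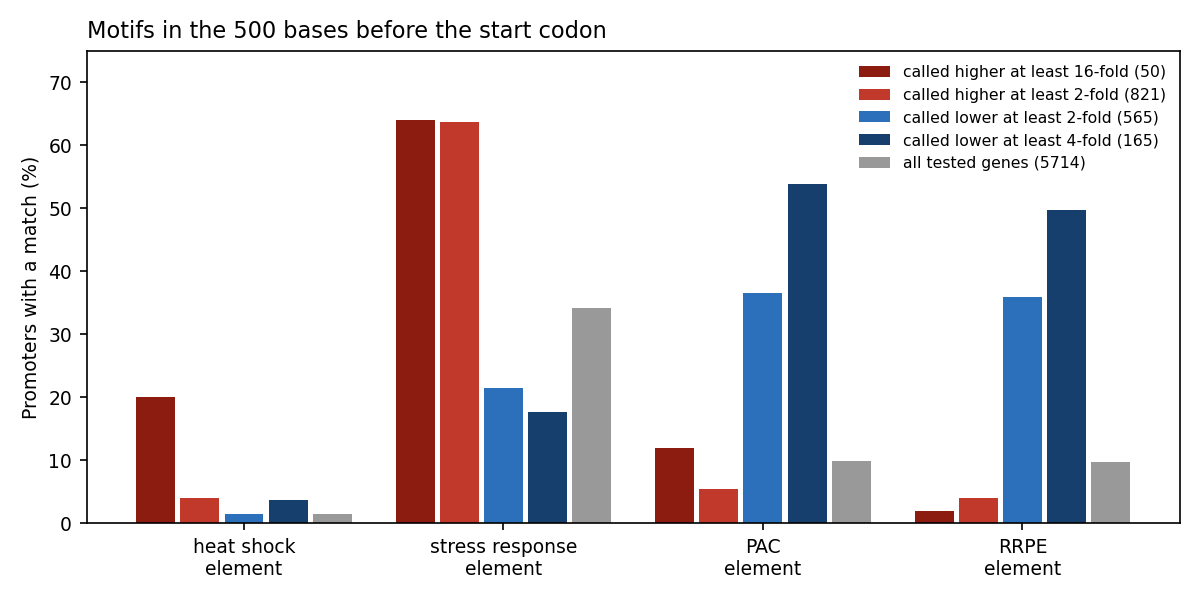
Share of promoters (%) with at least 1 match in the 500 bases before the start codon, for 5 sets of genes named with their size in the legend. The stress response element core reached 63.7% among genes called higher at least 2-fold and 34.1% among all tested genes, and the PAC and RRPE cores reached 53.9% and 49.7% among genes called lower at least 4-fold.

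The genes of the regulators themselves moved unevenly. Of 17 stress transcription factor genes, 12 were higher and 5 lower, with a median of 0.32. Under library totals 7 were higher and 5 lower, with a median of -0.01. MGA1, which resembles Hsf1, had 112 and 119 TPM at 39 °C, against 4.72 and 4.16 TPM at 30 °C. CIN5, a stress factor of the Yap family, had 764 and 741 TPM, against 41.6 and 42.6 TPM. RPN4, the activator of proteasome genes, had 554 and 566 TPM, against 92.0 and 88.0 TPM. All 3 stood apart in both libraries, with log2 fold changes of 4.94 ± 0.12, 4.38 ± 0.06 and 2.86 ± 0.05. XBP1, a repressor made under stress, rose by 3.18 ± 0.06, GIS1, a zinc finger factor of starved cells, by 2.23 ± 0.05, and HAC1, the factor of the unfolded protein response, by 1.58 ± 0.07 on the log2 scale. HSF1 itself had 67.4 and 69.6 TPM at 39 °C, against 45.6 and 46.4 TPM at 30 °C, a log2 fold change of 0.80 ± 0.05. SKN7, which works beside Yap1 in oxidative stress, fell by 0.69, and HMS2, another Hsf1-like protein, fell by 0.83.

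Among 13 regulators of ribosomal genes, 5 were higher and 4 lower (4 and 7 under library totals). TOD6, a repressor that binds the PAC element, had 13.8 and 12.6 TPM at 39 °C, against 114 and 109 TPM at 30 °C, without overlap. Its partner DOT6 had 138 and 139 TPM, against 63.8 and 63.6 TPM. These PAC-binding repressors thus moved in opposite directions, with log2 fold changes of -2.84 ± 0.07 for TOD6 and 1.34 ± 0.05 for DOT6 (adjusted p = 2.55e-13 and 1.95e-11). STB3, which binds the RRPE element, was higher by 1.00 ± 0.06, and SFP1, an activator of growth genes, by 0.89 ± 0.05. IFH1 had 13.7 and 14.3 TPM at 39 °C, against 26.6 and 24.0 TPM at 30 °C, a log2 fold change of -0.62 ± 0.07. The treatment acts on the protein, so this transcript is no check of the depletion. FHL1, which recruits Ifh1, fell by 0.53 and SCH9, a kinase that promotes growth, by 0.67.

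Of the 53 lists, a chaperone list had the highest median. All 8 genes of the disaggregase, small heat shock protein and sorting list were higher, each at least 2-fold, with a median of 4.73 beside 0.01 for all genes. Together they held 2.55% and 2.53% of TPM at 39 °C, against 0.049% and 0.0479% at 30 °C. HSP26, a small heat shock protein, had 5010 and 4833 TPM, against 46.6 and 49.1 TPM. In the cytosolic Hsp70 system, 13 of 19 genes were higher and 6 lower, with a median of 1.89. SSA1 and SSA2 encode the Hsp70s that are also made without stress, and are close copies whose reads the counting may have split. SSA1 had 6217 and 5989 TPM at 39 °C, against 491 and 478 TPM at 30 °C, and SSA2 had 7087 and 6947 TPM, against 1491 and 1445 TPM. FES1, a nucleotide exchange factor of Hsp70, had 4263 and 4424 TPM, against 166 and 167 TPM. The J protein gene APJ1 had 343 and 365 TPM, against 13.3 and 11.3 TPM. None of these 5 genes overlapped between the groups, and their log2 fold changes were 6.90 ± 0.07 for HSP26, 3.88 ± 0.04 for SSA1, 2.48 ± 0.04 for SSA2, 4.93 ± 0.05 for FES1 and 5.08 ± 0.07 for APJ1. The 6 members that fell were JJJ3, a J protein of diphthamide synthesis (fell by 2.34), JJJ1, which serves large subunit maturation (by 1.28), JJJ2 (by 1.07), SNL1 of the endoplasmic reticulum membrane (by 1.07), DJP1 of peroxisome import (by 0.56) and XDJ1 (by 0.41).

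Hsp90 and its partners also split, with 9 of 14 genes higher and 4 lower and a median of 0.35. Under library totals the count was 6 higher and 5 lower and the median 0.02. The Hsp90 gene HSP82, the most abundant member, had 5126 and 5041 TPM at 39 °C, against 151 and 142 TPM at 30 °C. Its log2 fold change, 5.34 ± 0.04, was the largest of the list. STI1, which links Hsp70 to Hsp90, had 3264 and 3290 TPM at 39 °C, against 280 and 261 TPM at 30 °C. The cyclophilin gene CPR6 had 2846 and 2877 TPM, against 384 and 382 TPM. Both rose without overlap, by 3.83 ± 0.04 and 3.13 ± 0.04 on the log2 scale. PPT1, the phosphatase that acts on Hsp90, instead had 25.3 and 26.0 TPM, against 93.5 and 86.8 TPM (log2 fold change -1.59 ± 0.06), and the cochaperone genes CNS1, CPR7 and TAH1 fell by 1.08, 0.61 and 0.49. Without the second 30 °C library TAH1 was not called (-0.29, adjusted p = 0.0729, edgeR). Of 12 mitochondrial chaperone genes, 9 were higher and 2 lower with TMM scaling (1 lower without the second 39 °C library), and 5 were higher under library totals, where the median changed sign. MDJ1, the J protein of the mitochondrial Hsp70, had 991 and 949 TPM, against 93.5 and 90.0 TPM. HSP60 had 1688 and 1728 TPM, against 394 and 384 TPM. Neither overlapped, and the log2 fold changes were 3.63 ± 0.05 and 2.36 ± 0.04, while MGE1, the nucleotide exchange factor of the same system, fell by 0.79. In the endoplasmic reticulum folding list 7 of 16 genes were higher, a share near the 38.0% of all genes, and 4 lower, led by the oxidase ERO1 (3.12 ± 0.04) and the Hsp70 KAR2 (3.04 ± 0.04). KAR2 had 3406 and 3326 TPM, against 478 and 480 TPM. Under library totals 3 genes of the list were higher and 12 lower, and the list median, 0.09 with TMM, was -0.24.

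Chaperones that serve new proteins on the ribosome went the other way. All 14 subunits of the TRiC chaperonin and its partner prefoldin were lower, within a narrow range from -0.85 to -0.49 and a median of -0.61. CCT8 had 102 and 107 TPM at 39 °C, against 222 and 217 TPM at 30 °C. Of the 7 genes for chaperones bound to the ribosome, 6 were lower: SSB1, a Hsp70 that meets nascent chains, had 711 and 717 TPM, against 1726 and 1718 TPM. ZUO1, its J protein, had 514 and 506 TPM, against 955 and 924 TPM. The groups did not overlap for any of these 3, with log2 fold changes of -0.85 ± 0.04, -1.04 ± 0.04 and -0.66 ± 0.04. The remaining ribosome-bound member, BTT1, was higher (0.52 ± 0.20), but 0 members were higher under library totals. Among 9 dedicated chaperones, which each guard 1 or a few ribosomal proteins before assembly, 8 were lower and 1 higher, with a median of -1.23. SYO1, which brings Rpl5 and Rpl11 into the nucleus, had 12.7 and 13.1 TPM, against 85.3 and 76.4 TPM. TSR2, the partner of Rps26, had 50.1 and 48.5 TPM, against 234 and 219 TPM. YAR1, the partner of Rps3, had 1242 and 1226 TPM, against 299 and 282 TPM. YAR1 was thus the member that rose, by 2.31 ± 0.06, beside falls of 2.42 for SYO1 and 1.97 for TSR2.

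**Figure D3:**
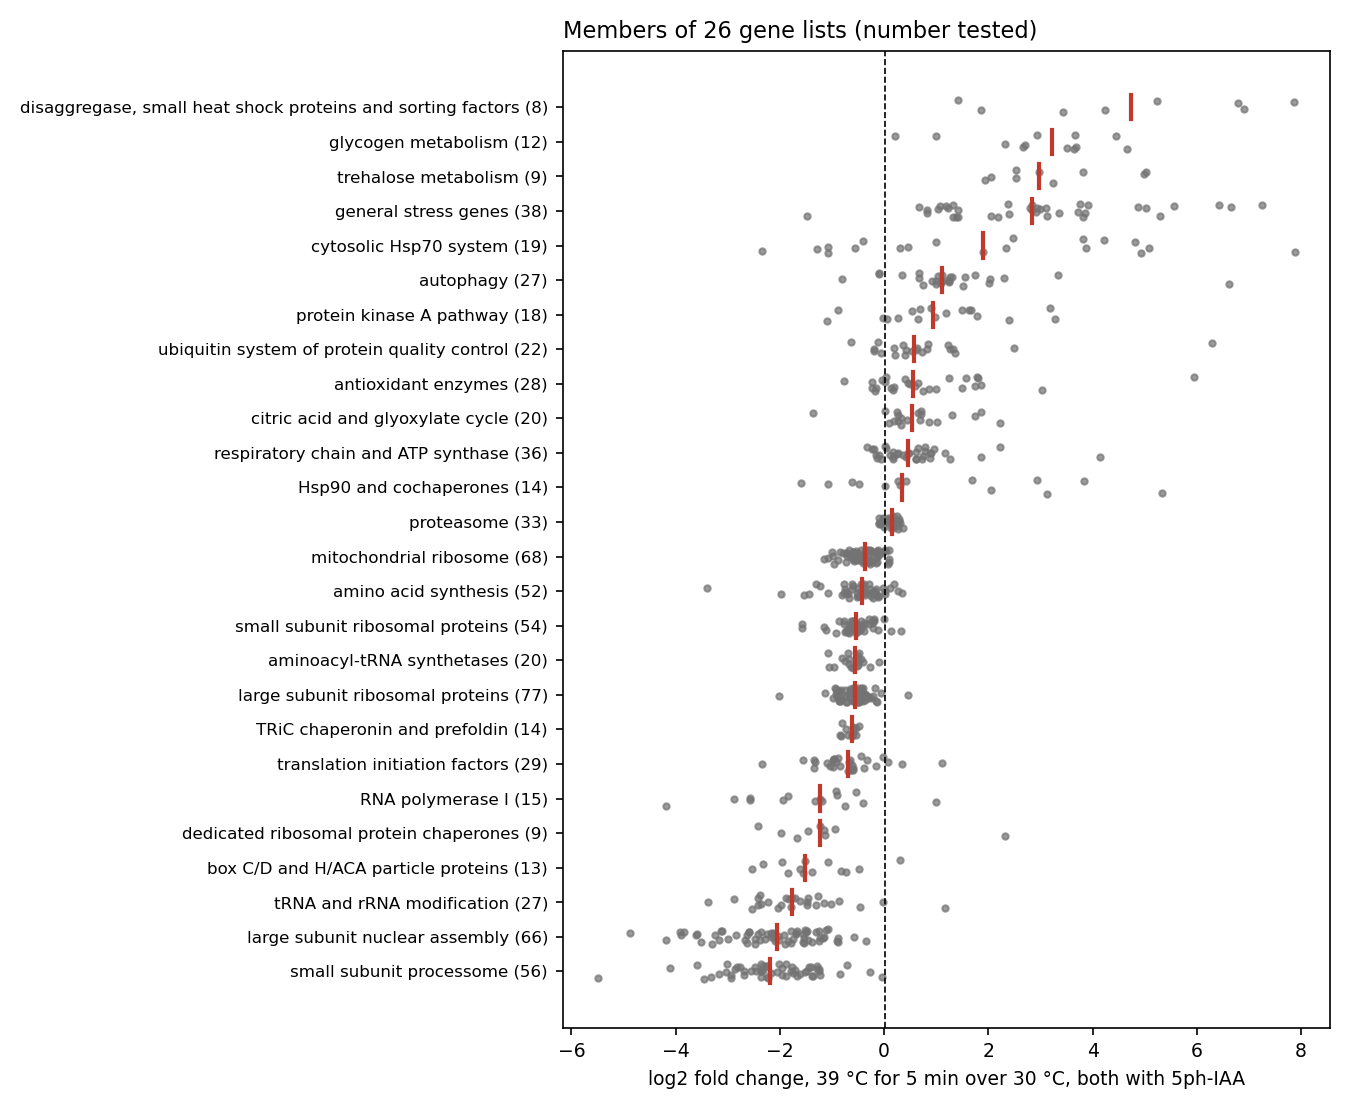
Log2 fold change, 39 °C over 30 °C with 5ph-IAA, of each tested member (grey dots) of 26 gene lists, with the median in red; the dashed line is the median of all genes tested, 0.01, and the height of a dot within its row has no meaning. Chaperone and carbohydrate store lists sit at the right, from 4.73, and ribosome assembly lists at the left, down to -2.20.

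Among genes of protein breakdown, most of those for ubiquitin-dependent quality control and autophagy were higher. Of 22 genes for ubiquitin-dependent quality control, 17 were higher and 3 lower, with a median of 0.58, and under library totals 11 were higher and 6 lower, with a median of 0.26. The polyubiquitin gene UBI4 had 2812 and 2696 TPM at 39 °C, against 570 and 580 TPM at 30 °C. UBC4, a ubiquitin-conjugating enzyme for damaged proteins, had 3236 and 3291 TPM, against 1439 and 1593 TPM. Both were higher without overlap, by 2.49 ± 0.05 and 1.33 ± 0.06 on the log2 scale. Autophagy genes were higher in 24 of 27 cases, 17 of them at least 2-fold, and ATG5 was the 1 lower (fell by 0.80). ATG8, which coats the forming autophagosome, had 222 and 266 TPM, against 53.5 and 62.0 TPM, a log2 fold change of 2.29 ± 0.12. For the 33 proteasome subunits, 19 were higher and 0 lower with TMM scaling, but 0 were higher and 25 lower under library totals, and their log2 fold changes stayed between -0.10 and 0.36. Without the second 30 °C library 12 were higher. The subunits' share of TPM was 0.823% and 0.842% at 39 °C, against 0.913% and 0.896% at 30 °C. The sequence GGTGGCAAA, the core of the element bound by Rpn4, was in 27 of these 33 promoters (81.8%) and in 1.68% of all.

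Carbohydrate stores and general stress genes rose almost throughout. All 9 genes of trehalose metabolism were higher, each at least 2-fold, with a median of 2.98. PGM2, phosphoglucomutase, had 1584 and 1573 TPM at 39 °C, against 61.1 and 55.2 TPM at 30 °C. TPS2, trehalose phosphate phosphatase, had 1006 and 1000 TPM, against 83.9 and 81.8 TPM. In glycogen metabolism 11 of 12 genes were higher, with a median of 3.22. GAC1, a targeting subunit of the glycogen phosphatase, had 213 and 213 TPM, against 10.3 and 12.5 TPM. GPH1, glycogen phosphorylase, had 660 and 658 TPM, against 61.4 and 60.6 TPM. Genes of synthesis and of breakdown were both among those that rose, with log2 fold changes of 4.99 ± 0.05 for PGM2, 3.82 ± 0.04 for TPS2, 4.44 ± 0.08 for GAC1 and 3.66 ± 0.05 for GPH1. Of 38 general stress genes 37 were higher, 34 at least 2-fold, and their TPM share was 5.11% and 5.01% at 39 °C, against 0.77% and 0.745% at 30 °C. The exception was YIL053W, annotated as GPP1, a glycerol phosphatase, with 397 and 403 TPM, against 1317 and 1309 TPM (log2 fold change -1.49 ± 0.04). Antioxidant enzymes were higher in 18 of 28 cases and lower in 4 (16 and 9 under library totals). Besides CTT1 at 5.94 ± 0.06, the glutathione peroxidase GPX1 rose by 3.03 ± 0.11 and the glutaredoxin GRX2 by 1.85 ± 0.07. AHP1, an abundant peroxiredoxin, had 7159 and 7072 TPM, against 2718 and 2875 TPM.

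Sugar uptake changed by transporter. Of 20 genes for hexose transport and phosphorylation, 17 were higher and 2 lower, with a median of 1.21. HXK1, a hexokinase used at low glucose, had 3938 and 3897 TPM at 39 °C, against 371 and 343 TPM at 30 °C. HXT7, a high-affinity transporter whose reads are shared with its near copy HXT6, had 2324 and 2367 TPM, against 288 and 285 TPM. HXT1, the low-affinity transporter of glucose-rich medium, had 31.8 and 33.0 TPM, against 77.6 and 80.0 TPM. The first 2 rose by 3.68 ± 0.05 and 3.26 ± 0.04, and HXT1 fell by 1.06. MIG2, a repressor of glucose-repressed genes, fell by 1.62. The 20 genes of glycolysis and fermentation had no shared direction, 7 higher and 9 lower: minor isoforms such as GPM2 (2.75 ± 0.12), PYK2 (2.65 ± 0.06) and TDH1 (1.76 ± 0.09) were higher, PGK1 was higher by 0.83 ± 0.04, and CDC19 fell by 0.55. In the protein kinase A pathway, which restrains the stress programme while glucose is plentiful, 14 of 18 genes were higher. IRA2, which switches Ras off, had 72.4 and 73.6 TPM, against 9.52 and 8.20 TPM. YAK1, a kinase that opposes the pathway, had 281 and 287 TPM, against 37.2 and 36.0 TPM. Both were higher without overlap, by 3.27 ± 0.06 and 3.18 ± 0.05, while TPK3, which encodes a catalytic subunit, fell by 0.88, and RAS2 (1.79 ± 0.05) and RAS1 (-1.10 ± 0.07) parted.

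Of the 53 lists, those of ribosome assembly had the lowest medians. Of 56 genes of the small subunit processome, the particle that cleaves and folds the early ribosomal RNA, 55 were lower, 52 at least 2-fold, with a median of -2.20. All 66 genes for nuclear assembly of the large subunit were lower, 61 at least 2-fold, with a median of -2.06. The lists' shares of TPM were 0.18% and 0.187% at 39 °C, against 0.821% and 0.8% at 30 °C, for the processome, and 0.3% and 0.31%, against 1.39% and 1.35%, for large subunit assembly. SOF1, a processome WD-repeat protein, had 5.06 and 5.33 TPM at 39 °C, against 107 and 103 TPM at 30 °C. TIF6, which keeps the immature large subunit from joining the small one, had 142 and 146 TPM, against 491 and 490 TPM. Their log2 fold changes were -4.11 ± 0.10 and -1.54 ± 0.05, and neither overlapped between groups. For export and cytoplasmic maturation of the large subunit 17 of 20 genes were lower, among them ALB1, a shuttling factor that fell by 4.76, and 2 were higher, the export receptor gene CRM1 (0.42 ± 0.05, not called under library totals) and SSA1, which also stands in the Hsp70 list. Proteins of the particles that guide RNA modification were lower in 12 of 13 cases, including CBF5, the pseudouridine synthase, with 132 and 131 TPM, against 596 and 600 TPM (-1.96 ± 0.04). Enzymes that modify tRNA and rRNA were lower in 25 of 27 cases with a median of -1.76, led by the dihydrouridine synthase DUS1 (-3.38 ± 0.12), and TAD2, a tRNA adenosine deaminase, was higher (1.16 ± 0.09). The RNA exosome, which trims ribosomal RNA ends, was lower in 16 of 17 cases, with the helicase MTR4 at -2.22 ± 0.07. AIR1 and AIR2, paralogous partners of that helicase, parted: AIR1 had 14.7 and 12.3 TPM, against 86.5 and 86.3 TPM, and AIR2 had 48.4 and 49.1 TPM, against 40.2 and 40.6 TPM.

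The polymerases that make ribosomal and transfer RNA followed. RNA polymerase I genes were lower in 14 of 15 cases with a median of -1.23, and the 7 subunits shared by polymerases I and III were all lower, with a median of -1.22. RRN11, a subunit of the core factor that recruits polymerase I, had 1.58 and 2.56 TPM at 39 °C, against 44.6 and 42.3 TPM at 30 °C. RPA43, which docks the initiation factor, had 39.0 and 45.7 TPM, against 303 and 286 TPM. Neither overlapped, and the log2 fold changes were -4.18 ± 0.17 and -2.57 ± 0.07. RNA polymerase III genes were lower in 11 of 19 cases and higher in 4, of which 1 stayed called higher under library totals. The largest subunit RPO31 had 7.54 and 7.73 TPM, against 26.8 and 23.5 TPM. Of the polymerase lists, that of subunits specific to RNA polymerase II had the median nearest 0, -0.24, with 4 of 7 genes lower (7 under library totals).

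Ribosomal protein genes, the direct targets of Ifh1, were lower at 39 °C than at 30 °C in cells given the depletion treatment at both temperatures. Whether Ifh1 has a part in this fall was not tested. Of 131 tested, 124 were lower and 1 higher, RPL15B (0.46 ± 0.11, not called under library totals or limma). Their share of TPM was 10.3% and 10.3% at 39 °C, against 17.1% and 17.3% at 30 °C (two-sided exact permutation test, p = 0.333, which is the smallest that 2 libraries a side allow). With TMM scaling, the quartiles of the genes' log2 fold changes were -0.66 and -0.44. Of these genes 6 were lower at least 2-fold, and 18 lay above -0.3. RPL22B fell the most, by 2.01, with 32.8 and 23.4 TPM at 39 °C, against 133.4 and 133.5 TPM at 30 °C. RPL27B had 300 and 291 TPM, against 717 and 794 TPM, and RPS27A had 411 and 460 TPM, against 1500 and 1515 TPM. RPP2B, the most abundant of the large subunit list, had 2365 and 2405 TPM, against 3840 and 3720 TPM. The groups did not overlap, and the log2 fold changes were -1.13 ± 0.08, -1.57 ± 0.09 and -0.44 ± 0.05. The 88 genes with an intron in the coding sequence had a median of -0.56 and the 43 without -0.54. Most of these genes come in near-identical pairs whose reads the counting may have split; with pairs summed, 73 of 74 features were lower, from -0.90 to -0.13. Under library totals 128 of the 131 were lower with a median of -0.88. CGATGAG, common before assembly genes, was in 3 of 77 large subunit and 1 of 54 small subunit promoters.

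**Figure D4:**
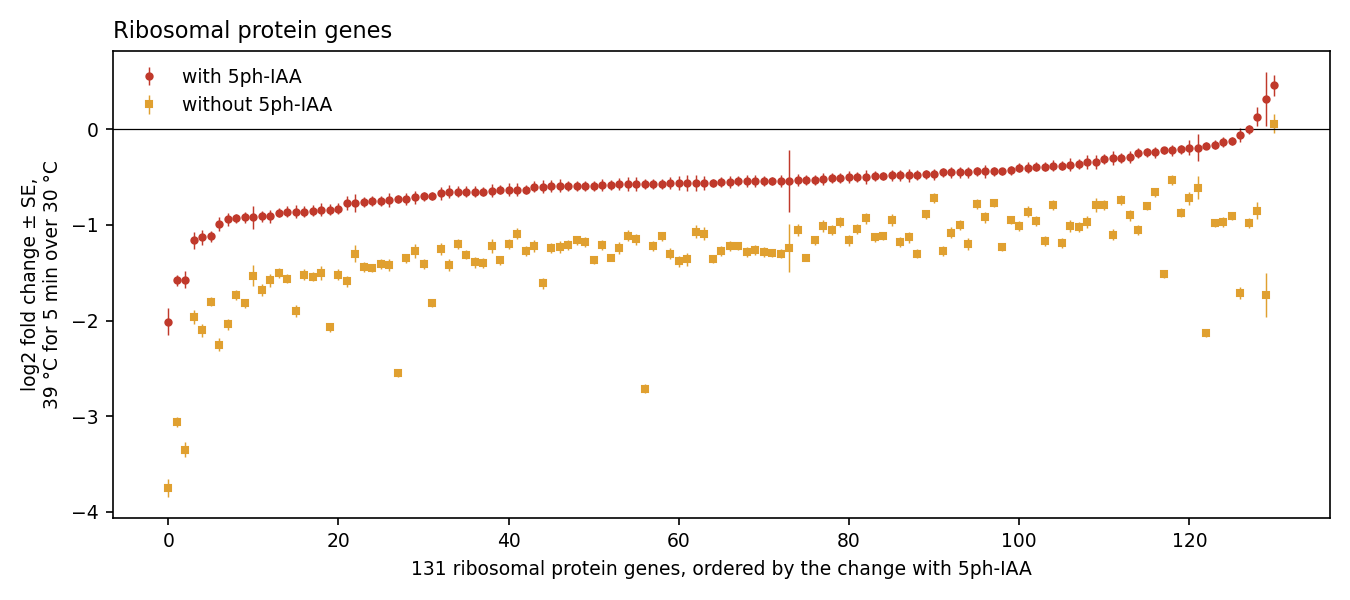
Log2 fold change ± SE (39 °C over 30 °C) of 131 ribosomal protein genes with 5ph-IAA (red) and without it (amber), ordered by the change with 5ph-IAA. The median is -0.55 with 5ph-IAA, medians without it are -1.24 for the large and -1.22 for the small subunit, and 129 of 131 genes had a difference called positive.

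Most genes of translation factors fell with those of the ribosome. Initiation factor genes were lower in 25 of 29 cases with a median of -0.69. NIP1, a subunit of initiation factor 3, had 30.2 and 27.9 TPM at 39 °C, against 169 and 177 TPM at 30 °C. TIF4631, the scaffold eIF4G, had 48.2 and 52.8 TPM, against 177 and 169 TPM. Both were lower without overlap, with log2 fold changes of -2.35 ± 0.06 and -1.55 ± 0.05, and the helicase paralog DBP1 was higher (1.11 ± 0.16). All 20 cytosolic aminoacyl-tRNA synthetases were lower, between -1.08 and -0.10. Elongation and termination genes were lower in 9 of 14 cases and higher in 4 (10 and 2 under library totals). The falls were led by the recycling factor RLI1 (-1.47 ± 0.05) and the release factors SUP45 (-1.34 ± 0.05) and SUP35 (-1.33 ± 0.04). The members called higher were HEF3 (0.90 ± 0.15), CAM1 (0.46 ± 0.05), EFB1 (0.38 ± 0.05) and TEF2 (0.22 ± 0.04). TEF2 was the most abundant member of the list, and its TPM overlapped, with 6566 and 6447 at 39 °C, against 6537 and 6517 at 30 °C. Its log2 fold change was smaller than the shift of -0.33 under library totals. In mRNA decay no direction held, 6 of 25 higher and 12 lower (4 and 18 under library totals), but EDC2, an activator of decapping, had 733 and 789 TPM, against 84.5 and 91.3 TPM, and DHH1, the decapping helicase, had 64.2 and 68.4 TPM, against 36.2 and 35.2 TPM. Their log2 fold changes were 3.33 ± 0.08 and 1.12 ± 0.06.

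Mitochondrial genes divided by function. Of 68 mitochondrial ribosomal proteins 53 were lower, with a median of -0.37, whereas 26 of 36 genes of the respiratory chain and ATP synthase and 16 of 20 of the citric acid and glyoxylate cycle were higher, with medians of 0.46 and 0.54. Under library totals the respiratory count was 19 higher and 12 lower and that of the cycle 9 higher and 3 lower. CYC7, the cytochrome c isoform of low oxygen, had 2023 and 1987 TPM at 39 °C, against 143 and 123 TPM at 30 °C. NDI1, the internal NADH dehydrogenase, had 236 and 258 TPM, against 87.6 and 72.9 TPM. CIT1, mitochondrial citrate synthase, had 550 and 552 TPM, against 181 and 175 TPM. These 3 rose without overlap, by 4.15 ± 0.06, 1.85 ± 0.07 and 1.85 ± 0.04.

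Biosynthesis of building blocks was lower. Amino acid synthesis genes were lower in 42 of 52 cases (median -0.43), purine synthesis genes in 14 of 19 (-0.66) and sterol synthesis genes in 17 of 26 (-0.30). ILV5, of branched amino acid synthesis, had 62.1 and 59.5 TPM at 39 °C, against 744 and 745 TPM at 30 °C. IMD4, of guanine nucleotide synthesis, had 50.6 and 47.6 TPM, against 309 and 313 TPM. ERG3, a sterol desaturase, had 217 and 237 TPM, against 745 and 751 TPM. The libraries did not overlap, and the log2 fold changes were -3.39 ± 0.05, -2.44 ± 0.05 and -1.50 ± 0.05. GCN4, whose product activates amino acid synthesis genes, fell by 0.71. In the sulfur list 11 of 25 genes were lower and 4 higher (20 and 3 under library totals): SAM1, an S-adenosylmethionine synthetase, fell by 2.49, and MET13 and the regulator MET28 rose by 1.55 ± 0.09 and 1.53 ± 0.16. Phosphate genes were lower in 16 of 21 cases, with the transporter PHO84 at 28.9 and 36.0 TPM, against 967 and 972 TPM (-4.68 ± 0.07), and the regulator PHO2 was higher (1.16 ± 0.05). Iron uptake had no shared direction, 9 of 18 higher and 7 lower (4 higher and 7 lower under library totals and under limma), with CTH1, which destabilises mRNAs of iron-using proteins, at 2.35 ± 0.09 and the reductase FRE1 at -2.17 ± 0.09.

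At the cell surface and in the division cycle the changes were mixed. Of 27 cell wall genes 9 were higher and 12 lower (6 and 18 under library totals). UTR2, a chitin transglycosylase, had 101 and 105 TPM at 39 °C, against 673 and 688 TPM at 30 °C. YPS1, a yapsin protease of the cell surface, had 119 and 130 TPM, against 58.1 and 50.7 TPM. UTR2 fell by 2.50 and YPS1 rose by 1.42 ± 0.08. Drug export genes were higher in 8 of 13 cases and lower in 3 (6 and 5 under library totals). The largest rise was that of the polyamine exporter TPO4 (4.09 ± 0.07), with 371 and 406 TPM, against 26.4 and 27.0 TPM. Cyclin and cell cycle inhibitor genes were lower in 13 of 22 cases and higher in 7. The G1 cyclin gene PCL1 had 10.4 and 10.6 TPM, against 99.5 and 95.6 TPM, and CLN2, another, had 60.3 and 70.7 TPM, against 245 and 250 TPM (log2 fold changes -2.99 ± 0.10 and -1.69 ± 0.06). FAR1, an inhibitor that arrests cells in G1 after pheromone, fell by 2.29, and SIC1, the inhibitor of S phase kinases, was higher by 0.76 ± 0.05. The a-cell genes were lower in 4 of 5 cases, including STE2 (-1.38 ± 0.05) and BAR1, the alpha-factor protease (-1.51 ± 0.06). The remaining 1 was higher, by 0.68, and under library totals 0 were higher. HO, the mating type endonuclease gene, had 3.87 and 3.79 TPM, against 87.5 and 84.9 TPM.

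Against heat shock without 5ph-IAA, most called genes kept their direction, and on the TMM scale a called difference was mostly a smaller change with 5ph-IAA. Both comparisons used separate libraries, and the difference of the 2 changes was tested in the same fit. Without 5ph-IAA, 2438 genes were higher and 2274 lower at 39 °C. A gene was higher with and without 5ph-IAA in 1975 cases and lower in both in 1912, and calls were opposite for 49 higher with and lower without and 57 the reverse. The difference (change with 5ph-IAA minus change without) was called for 48.9% of genes, positive for 26.0% and negative for 22.9%. Among genes higher in both, it was negative, a smaller rise with 5ph-IAA, for 838 and positive for 111; among genes lower in both it was positive, a smaller fall, for 1080 and negative for 74. This balance depends on the scaling too: under library totals 908 differences were positive and 2550 negative, and under limma on log2(TPM + 1) 685 and 2948.

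**Figure D5:**
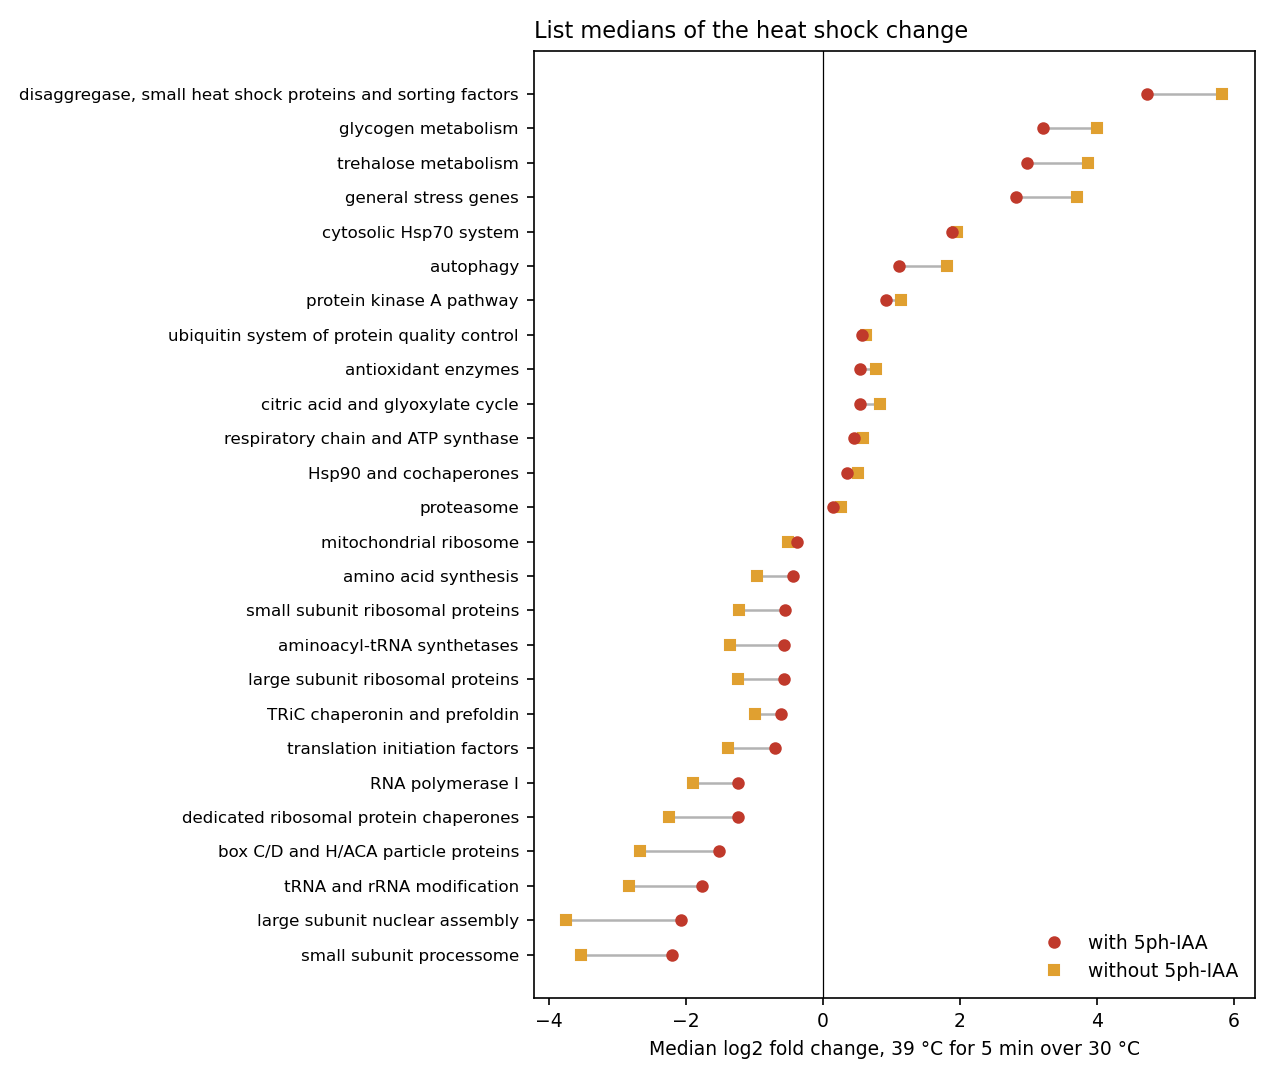
Median log2 fold change at 39 °C over 30 °C of 26 gene lists, with 5ph-IAA (red circles) and without it (amber squares), on the TMM scale. The processome stands at -2.20 with 5ph-IAA and -3.53 without it, and general stress genes at 2.83 with it and 3.71 without it. On this scale the red circle lies nearer 0 in all 26 rows and did so for 50 of the 53 lists. The count depends on the scaling: under library totals the mitochondrial ribosome list had a median of -0.70 with 5ph-IAA and a median difference of -0.17.

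Of the 53 lists, those of ribosome assembly had the largest median differences. The fall of the processome was smaller with 5ph-IAA for 53 of 56 genes (median difference 1.55) and that of large subunit assembly for 64 of 66 (1.53), and the medians stayed above 1 under library totals (1.30 and 1.28). For the ribosomal protein genes, the fall was smaller for 129 of 131 genes with a median difference of 0.66, and for 119 under library totals with a median of 0.41. At 30 °C these genes already held 17.1% and 17.3% of TPM with 5ph-IAA, against 39.7% and 40.6% without it. Rises were smaller with 5ph-IAA for 27 of 38 general stress genes (median difference -0.91), 8 of 9 trehalose genes (-0.79) and 9 of 12 glycogen genes (-0.94). RGI1, a gene of respiratory growth, had 3793 and 3791 TPM at 39 °C and 120 and 107 TPM at 30 °C with 5ph-IAA, against 4504 and 4577 TPM and 12.7 and 11.9 TPM without it. GSY1, a glycogen synthase, had 270 and 288 TPM at 39 °C and 27.8 and 29.5 TPM at 30 °C with 5ph-IAA, against 230 and 213 TPM and 3.15 and 2.64 TPM without it. In both, the libraries at 30 °C differed by a larger factor between the treatments than those at 39 °C, though by fewer TPM. The differences in change were -3.10 ± 0.11 for RGI1 and -2.62 ± 0.11 for GSY1. On the TMM scale, 3 of the 53 list medians were farther from 0 with 5ph-IAA than without it, those of iron uptake (0.30 and 0.24), cyclins and cell cycle inhibitors (-0.23 and 0.07) and alpha-cell genes (-0.36 and 0.18). Among chaperones, the median differences were negative for the disaggregase list (-0.33) and the Hsp70 system (-0.28). They were positive for TRiC and prefoldin (0.29, but -0.07 under limma), chaperones bound to the ribosome (0.59) and dedicated chaperones (1.01). The rise of HSP26 was smaller with 5ph-IAA (-1.85 ± 0.12) and so was that of SSA4 (-0.84 ± 0.08), while BTN2 rose by 7.86 ± 0.07 with and 7.79 with no 5ph-IAA, a difference of 0.06 (adjusted p = 0.623).

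Single genes went against these patterns. HSP30, a regulator of the plasma membrane proton pump, had 2325 and 2263 TPM at 39 °C and 16.8 and 18.2 TPM at 30 °C with 5ph-IAA, against 2050 and 2082 TPM and 68.9 and 56.5 TPM without it. Its rise was larger with 5ph-IAA by 2.34 ± 0.11 on the log2 scale, and that of MGA1 by 3.01 ± 0.17. TPO2, a polyamine exporter, had 39.2 and 43.8 TPM at 39 °C and 26.2 and 23.5 TPM at 30 °C with 5ph-IAA, against 20.5 and 19.8 TPM and 110 and 93.4 TPM without it. It was thus higher at 39 °C with 5ph-IAA (0.97 ± 0.08) and lower without it (-2.46). The same opposite calls held for STP4, a zinc finger gene, at 1.58 ± 0.08 with and -1.01 without, and for PRM7, at 1.48 ± 0.11 with and -2.44 without. RRN11 fell by 4.18 with 5ph-IAA and by 2.48 without it, in a list with 7 differences called positive and 2 called negative, its own among them.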

How the data were processed

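Poly-A RNA libraries (TruSeq v2, per the labels' protocols) were quantified by the authors with kallisto (per the submitters' processing notes), and the sources used here give neither its version nor the transcript set and genome build. The deposited estimated counts and TPM were made by the authors, 1 table for each library, over 6034 coding targets. TPM is scaled by effective length to a fixed sum, and kallisto divides reads that fit several targets among them, so values of near-identical copies are uncertain. The kit does not mark strand, so reads of overlapping and antisense genes cannot be told apart. Of the target IDs, 6031 matched locus tags of the R64 reference, and 6018 of 6019 coding sequences had the same length. Libraries without 5ph-IAA summed to between 8917417 and 21025464 estimated counts.

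Estimated counts were rounded and fitted with edgeR 4.0.16 (TMM scaling, filterByExpr, quasi-likelihood test, R 4.3.3) over all 8 libraries, with Benjamini-Hochberg adjustment over 5734 genes and a threshold of 0.05. The SE of a log2 fold change is its size divided by the square root of the F statistic. Alternatives used limma 3.58.1 on log2(TPM + 1), DESeq2 1.42.0, other scalings and filters, a replicate block and leaving out each library. Replicates differed by more than counting noise (chi-square per degree of freedom 3.41 to 4.53) and correlated at 0.9916 to 0.9962 in log2 TPM over genes. RPL29, RPL39, RPL41A, RPL41B, RPS29A and RPS29B did not pass the filter and were not tested.

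Named genes were the 10 largest rises, falls, and differences in each direction among called genes with at least 10 TPM in a group, the 5 largest gains and losses of TPM, in each list the 3 largest changes, the most abundant member and members against the majority, and all regulators and mating type genes. The members and the 53 lists were chosen with earlier results of these data known. MLP1 and DBP5 were taken out of lists where they did not belong after values had been seen, MEL1 is not in the tables, and some genes stand in more than 1 list. Promoter letters come from the S288C reference R64, 500 bases before each start codon, whereas the cells were W303.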

Additional observations from a re-analysis of the deposited data

Results flagged for a closer look

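The heat shock change differed between cells with and without 5ph-IAA for 1490 genes in the positive and 1315 in the negative direction (edgeR's test of the difference, Benjamini-Hochberg adjustment over all genes tested). Values are the log2 fold change with 5ph-IAA minus that without, ± SE, and TPM pairs are the 2 libraries of a group. Groups of 2 libraries are too small to look for a library apart from its group.

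Among the 10 largest positive differences, BSC1 stood first at 5.02 ± 0.27. It had 4.72 and 3.76 TPM at 39 °C and 2.66 and 4.06 TPM at 30 °C with 5ph-IAA, against 4.70 and 4.43 TPM at 39 °C and 94.6 and 93.7 TPM at 30 °C without it. Only the libraries at 30 °C without 5ph-IAA had more than 5 TPM. The call with 5ph-IAA (0.53 ± 0.23, adjusted p = 0.0489) was lost under 13 of 16 alternatives, among them DESeq2 (adjusted p = 0.0738), limma (0.158), library totals (0.434, the highest), and leaving out the first 39 °C library (0.33, adjusted p = 0.326) or the first 30 °C library (0.27, adjusted p = 0.349) with 5ph-IAA. DBP2, an RNA helicase, had 67.6 and 68.4 TPM at 39 °C and 289 and 280 TPM at 30 °C with 5ph-IAA, against 24.4 and 22.2 TPM and 499 and 468 TPM without it, a smaller fall by 2.67 ± 0.07. ARX1, a shuttling factor of large subunit export, had 15.5 and 18.3 TPM at 39 °C and 151 and 155 TPM at 30 °C with 5ph-IAA, against 3.97 and 4.07 TPM and 161 and 154 TPM without it (2.46 ± 0.11). For ARX1 the 30 °C libraries lay close together with and without 5ph-IAA, and those at 39 °C lay apart. PRM7 (3.92 ± 0.13), TPO2 (3.43 ± 0.10), MGA1 (3.01 ± 0.17), STP4 (2.59 ± 0.10) and HSP30 (2.34 ± 0.11) are the remaining named genes with a positive difference and even libraries. YER160C, a transposon reading frame with many copies whose reads cannot be assigned to one of them, gave 4.80 ± 0.98, and the short reading frame YGR027W-A, with 36.3 and 16.1 TPM at 39 °C with 5ph-IAA, gave 3.17 ± 0.62.

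Of the negative differences, TMA10, a stress-induced ribosome-associated protein, had 10118 and 10086 TPM at 39 °C and 112 and 120 TPM at 30 °C with 5ph-IAA, against 12772 and 12513 TPM and 16.9 and 19.4 TPM without it, a smaller rise by 2.64 (-2.64 ± 0.18). ARO10, a decarboxylase of aromatic amino acid breakdown, had 267 and 255 TPM at 39 °C and 191 and 184 TPM at 30 °C with 5ph-IAA, against 672 and 652 TPM and 50.7 and 50.4 TPM without it (-2.88 ± 0.07). YGR035C fell by 0.44 with 5ph-IAA and rose by 2.67 without it (-3.11 ± 0.20), and RGI1 and GSY1 gave -3.10 ± 0.11 and -2.62 ± 0.11. The other 5 had uneven libraries: YHR054C gave -3.93 ± 0.68, YAL063C-A -3.41 ± 1.04, YKL104W-A -2.80 ± 0.75, PAI3, a proteinase inhibitor, -2.57 ± 0.70 and SPG3 -2.49 ± 0.51. YHR054C had 16.0 and 36.7 TPM at 39 °C with 5ph-IAA and, at 30 °C without it, 4.74 TPM and a value listed near 0, and its difference was not called by DESeq2 (-3.89, adjusted p = 0.206). The negative call of YAL063C-A was lost when any of 4 libraries was left out: the first 39 °C (-3.22, adjusted p = 0.0512) or second 30 °C (-2.69, adjusted p = 0.107) library with 5ph-IAA, or the first 39 °C (-3.02, adjusted p = 0.0652) or first 30 °C (-2.75, adjusted p = 0.0639) library without it.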

How the results depend on the processing

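With library totals alone, 1409 genes were higher at 39 °C with 5ph-IAA, 958 were lower at least 2-fold, and 908 differences between the changes with and without 5ph-IAA were positive and 2550 negative. With limma on log2(TPM + 1), 685 differences were positive and 2948 negative. Of the genes called higher with TMM, 71 were called lower under library totals and 7 under limma, and 0 under the remaining alternatives, and each of the 1409 genes higher under library totals was higher with TMM. DESeq2, median-of-ratios size factors, no filter, the 4 libraries with 5ph-IAA alone and a prior count of 1 kept these counts within 1.5 times, DESeq2 giving 1999 higher and 2142 lower. Leaving out each library in turn gave between 2018 and 2205 genes higher, 2019 and 2214 lower, 795 and 825 higher at least 2-fold, 566 and 583 lower at least 2-fold, 1333 and 1395 differences positive, and 1084 and 1225 negative. The lone library of a group was then assumed to vary like the other groups. No called value changed direction among the named genes followed through the alternatives, but not every gene given in the text was followed. TEF2, called higher by 0.22, lay within the shift of -0.33 under library totals, and its TPM overlapped between the groups. The replicate block gave 2182 genes higher and 2197 lower, with 1499 differences positive and 1310 negative. Deviations from the group means correlated at 0.108 between same-numbered libraries of the 2 groups with 5ph-IAA and between -0.137 and 0.095 for the other pairs of groups, so the numbers were not taken to pair the libraries. The fit rests on 2 libraries a group and 4 residual degrees of freedom, and genes under the filter on low counts were not tested.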
